A study of Homo sapiens with 64 samples.

Results

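The 7 RGS genes described here are RGS1, RGS2, RGS10, RGS13, RGS14, RGS16 and RGS19, taken as every probe that carries one of these symbols. They account for 10 of 47231 probes on the array and 7 of 20046 named genes. RNA came from human B-cell lymphoma lines grown in vitro and was measured on 64 single-channel Illumina arrays. The lines SUDHL2 and SUDHL6 were left untreated or were given DMSO, the solvent used as vehicle, or OTX015 for 1, 2 or 12 h, on 3 arrays in each of 14 groups. OTX015 is a small molecule that blocks the acetyl-lysine pockets of the BET bromodomain proteins, and no source used here states its dose. A panel of 22 untreated lines, SU-DHL-2 and SU-DHL-6 among them, had 1 array each, and each treated group stands for a single line. No time in culture is given for the untreated arrays.

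RGS proteins are brakes on signalling through G-protein-coupled receptors. Their shared domain speeds the hydrolysis of GTP by active G-protein alpha subunits, which ends the signal of chemokine, lipid and hormone receptors. In B cells this braking limits migration towards chemokines, and several members are themselves induced when the cell is activated. RGS1, RGS2, RGS13 and RGS16 are small members that hold little beyond the RGS domain, RGS10 and RGS14 belong to another branch of the family, and RGS19 to yet another.

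In RefSeq's annotation of GRCh38.p14, RGS1, RGS13 and RGS2 are neighbours on chromosome 1, in that order, and RGS16 lies on the same chromosome beside RGS8. The 250 bases before the start of these 4 genes are given because RGS1, RGS2 and RGS16 were the members called against DMSO at 1 or 2 h, whereas RGS13, between RGS1 and RGS2, was called only at 12 h. Sequences are RefSeq's, 5′ to 3′ on the gene's own strand, and capitals mark matches, on either strand, to 7 motifs that were searched. The letters searched were TATAAA for the TATA box and TGACGTCA for the cAMP response element. For the AP-1 site they were TGANTCA. For the GC box, found in many promoters of housekeeping genes, they were GGGCGG. For the E-box, the site of MYC-type factors, they were CACGTG. For the CCAAT box they are its name, and the last was the NF-kB motif. No match in these windows overlapped another motif.
RGS1, chr1:192575523-192575772, plus strand: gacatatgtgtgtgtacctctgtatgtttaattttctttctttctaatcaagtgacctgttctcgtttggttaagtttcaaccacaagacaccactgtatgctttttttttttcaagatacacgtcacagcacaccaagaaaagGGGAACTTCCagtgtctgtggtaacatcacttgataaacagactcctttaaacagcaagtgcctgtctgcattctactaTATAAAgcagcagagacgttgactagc
RGS13, chr1:192635897-192636146, plus strand: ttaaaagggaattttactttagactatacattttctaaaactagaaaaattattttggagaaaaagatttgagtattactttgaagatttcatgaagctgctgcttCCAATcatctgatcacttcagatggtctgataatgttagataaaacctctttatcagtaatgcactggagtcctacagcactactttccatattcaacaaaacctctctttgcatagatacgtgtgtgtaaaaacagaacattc
RGS2, chr1:192808789-192809038, plus strand: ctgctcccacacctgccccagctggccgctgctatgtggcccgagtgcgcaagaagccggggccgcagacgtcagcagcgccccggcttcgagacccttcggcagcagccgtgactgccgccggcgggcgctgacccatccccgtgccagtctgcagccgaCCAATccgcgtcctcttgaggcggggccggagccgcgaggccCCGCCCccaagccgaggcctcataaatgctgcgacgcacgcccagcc
RGS16, chr1:182604390-182604639, minus strand: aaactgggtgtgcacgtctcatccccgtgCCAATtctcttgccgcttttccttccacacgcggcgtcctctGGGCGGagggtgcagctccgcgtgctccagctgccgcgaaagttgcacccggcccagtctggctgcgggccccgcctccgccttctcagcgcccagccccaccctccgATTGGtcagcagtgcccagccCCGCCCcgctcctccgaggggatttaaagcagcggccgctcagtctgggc
The RGS1 window held a TATA box that ended 21 bases before the start and an NF-kB match that ended 96 bases before it. Over 35116 windows of this length, 10.7% held the TATA box letters and 9.96% an NF-kB match. The RGS2 window held a CCAAT box and a GC box, and the RGS16 window held 2 of each, against 32% and 42.6% of all windows. The RGS13 window held only a CCAAT box. The cAMP response element, the AP-1 site and the E-box, found in 1.65%, 6.57% and 6.34% of windows, were in none of the 4. Guanine and cytosine made up 72.8% of the RGS2 window and 68.4% of the RGS16 window, against 39.2% for RGS1 and 32% for RGS13.

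Levels are log2 signals after background correction and quantile normalization, and changes are differences of log2 levels with their standard error (SE). A gene is called risen or fallen when limma's p, adjusted over all 13393 genes tested, is under 0.05. Median signals were 88.27 to 118 per array, 33.96 to 47.38% of probes were above background, and replicate arrays correlated at 0.982 to 0.994. All 7 genes passed the filter on dim probes, with 9 of their 10 probes. The CD79A, CD79B, MS4A1, CD22, BLK and CD74 markers of B cells were detected on all 21 arrays of SUDHL2 and of SUDHL6, the PAX5 probe on none. Of 24 markers of T and NK, myeloid, stromal and epithelial cells that had a probe, 9 were detected on none of the 42 arrays (CD3E, CD7, NKG7, KLRD1, CSF1R, S100A9, KRT8, VWF and PDGFRB). FCGR3A was detected on all arrays of both lines, EPCAM on all 21 and CD3D on 18 of SUDHL2, and CD14 on 20 arrays of SUDHL2 and 12 of SUDHL6. LYZ was detected on 15 arrays of SUDHL2 and 11 of SUDHL6, and CD2 on 8 and 1. The other detected markers were on at most 4 arrays of either line.

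Some arrays stood apart. The third SUDHL6 experiment had the lowest RGS1 level of the 3 arrays in 7 of 7 groups, with a mean difference of -0.96 from the other two. These arrays shared a slide, and the slide's part in the difference was not tested. Slides are taken throughout from the number that opens each array's name. Second-experiment DMSO arrays on the same slide had RGS1 at 9.46 and 11.27, and first-experiment arrays on another slide 9.44 and 11.24. In the panel, the array labelled Karpas-422 stood apart. Its highest correlation with another panel array was 0.88, where the lowest such value among the other 21 lines was 0.916. On it CD79A stood at 5.45, against 9.64 to 11.73 as the lowest and the median of the other lines, and MS4A1 and CD22 were not above background. The authors' deposited log2 column for that line gave CD79A at 12.65 and matched the signals of another array, that of SU-DHL-4, best. Panel values are therefore given for 21 lines, with the array labelled Karpas-422 beside them.

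RGS1 lowers the response of B cells to chemokines and rises on activation. With OTX015 it was lower than with DMSO at every hour in both lines, by 1.87- to 3.15-fold in SUDHL6, and the fall was called at all 3 hours in SUDHL6 and at 12 h in SUDHL2. At 1 h in SUDHL6 the level was 9.15, 9.18 and 8.54 with OTX015 and 10.80, 10.96 and 10.07 with DMSO. The groups did not overlap, and the change was -1.65 ± 0.30 (adjusted p = 0.0011). At 2 h the OTX015 arrays read 9.74, 9.74 and 8.79 and the DMSO arrays 11.24, 11.27 and 10.34, again with no overlap (-1.53 ± 0.30, adjusted p = 0.00047). At 12 h the levels were 8.66, 8.62 and 7.25 against 9.44, 9.46 and 8.32. Here the highest OTX015 array lay above the lowest DMSO array, which was that of the third experiment. The change of -0.90 ± 0.30 was called (adjusted p = 0.02). It was also called in each of the 10 settings that kept all arrays (adjusted p at most 0.037), the replicate number as a block among them. Without that block, the call was lost without DMSO replicate 1 (-0.72, adjusted p = 0.12) or 2 (-0.71, adjusted p = 0.12). It was also lost without OTX015 replicate 3 (-0.43, adjusted p = 0.31). Equal replicate numbers paired these arrays (correlations of deviations 0.22 to 0.438), and leaving out 1 array breaks its pair.

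In SUDHL2 the RGS1 arrays at 1 h read 9.74, 9.67 and 9.68 with OTX015 and 10.72, 10.85 and 11 with DMSO. At 2 h they read 8.82, 8.97 and 8.87 against 10.16, 9.45 and 9.51, and at 12 h 6.52, 6.82 and 6.77 against 7.79, 7.75 and 7.65. The groups did not overlap at any hour. The differences were -1.16 ± 0.30 (adjusted p = 0.12), -0.82 ± 0.30 (adjusted p = 0.16) and -1.03 ± 0.30 (adjusted p = 0.0056), so only the last was called. The SE is pooled over both lines and so carries the spread of SUDHL6. With slide as a block, the 1 h and 2 h differences were also called (adjusted p = 0.0016 and 0.014). They were called too with the third SUDHL6 experiment left out (adjusted p = 1.8e-07 and 2.9e-05), a setting added after seeing the data. With the authors' deposited log2 values the 12 h difference was -0.63 (adjusted p = 0.054) and the 1 h difference -1.11 (adjusted p = 0.049). Within slides the SUDHL2 differences were -1.32 and -1.12 at 1 h, -0.83 and -0.64 at 2 h, and -1.10 and -0.88 at 12 h.

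The untreated group of each line has no time in culture given, so the part of the vehicle itself was not tested. With DMSO, RGS1 also departed from the untreated level. In SUDHL2 it differed from the untreated level by 1.5 ± 0.30 at 1 h (adjusted p = 0.00098), 0.35 ± 0.30 at 2 h (adjusted p = 0.5) and -1.62 ± 0.30 at 12 h (adjusted p = 5e-05). The 3 untreated SUDHL2 arrays read 9.39, 9.32 and 9.34, so the OTX015 arrays at 1 h (9.67 to 9.74) lay above them and those at 12 h (6.52 to 6.82) far below. Against untreated cells the 12 h OTX015 level had changed by -2.65 ± 0.30 in SUDHL2 (6.28-fold lower, adjusted p = 1.5e-09) and by -1.84 ± 0.30 in SUDHL6 (3.57-fold lower, adjusted p = 4.1e-06). In SUDHL6 the untreated arrays read 10.46, 10.15 and 9.43. The DMSO arrays differed by 0.94 ± 0.30 at 2 h (adjusted p = 0.031) and -0.94 ± 0.30 at 12 h (adjusted p = 0.023), with overlap. The 2 h call was lost without untreated replicate 2 or 3 or DMSO replicate 1 or 2 (adjusted p up to 0.23, with 0.65 as the smallest difference). The 12 h call was lost without untreated replicate 1 or 2 or DMSO replicate 3 (-0.56, adjusted p = 0.24 at most). OTX015 at 1 h in SUDHL6 differed from untreated by -1.06 (adjusted p = 0.047), a call lost when any of 5 of the 6 arrays was left out (adjusted p up to 0.34). At 2 h the difference was -0.59 (adjusted p = 0.26), and it was called with the replicate number as a block (adjusted p = 0.0015) or slide as a block (adjusted p = 0.044).

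**Figure D1:**
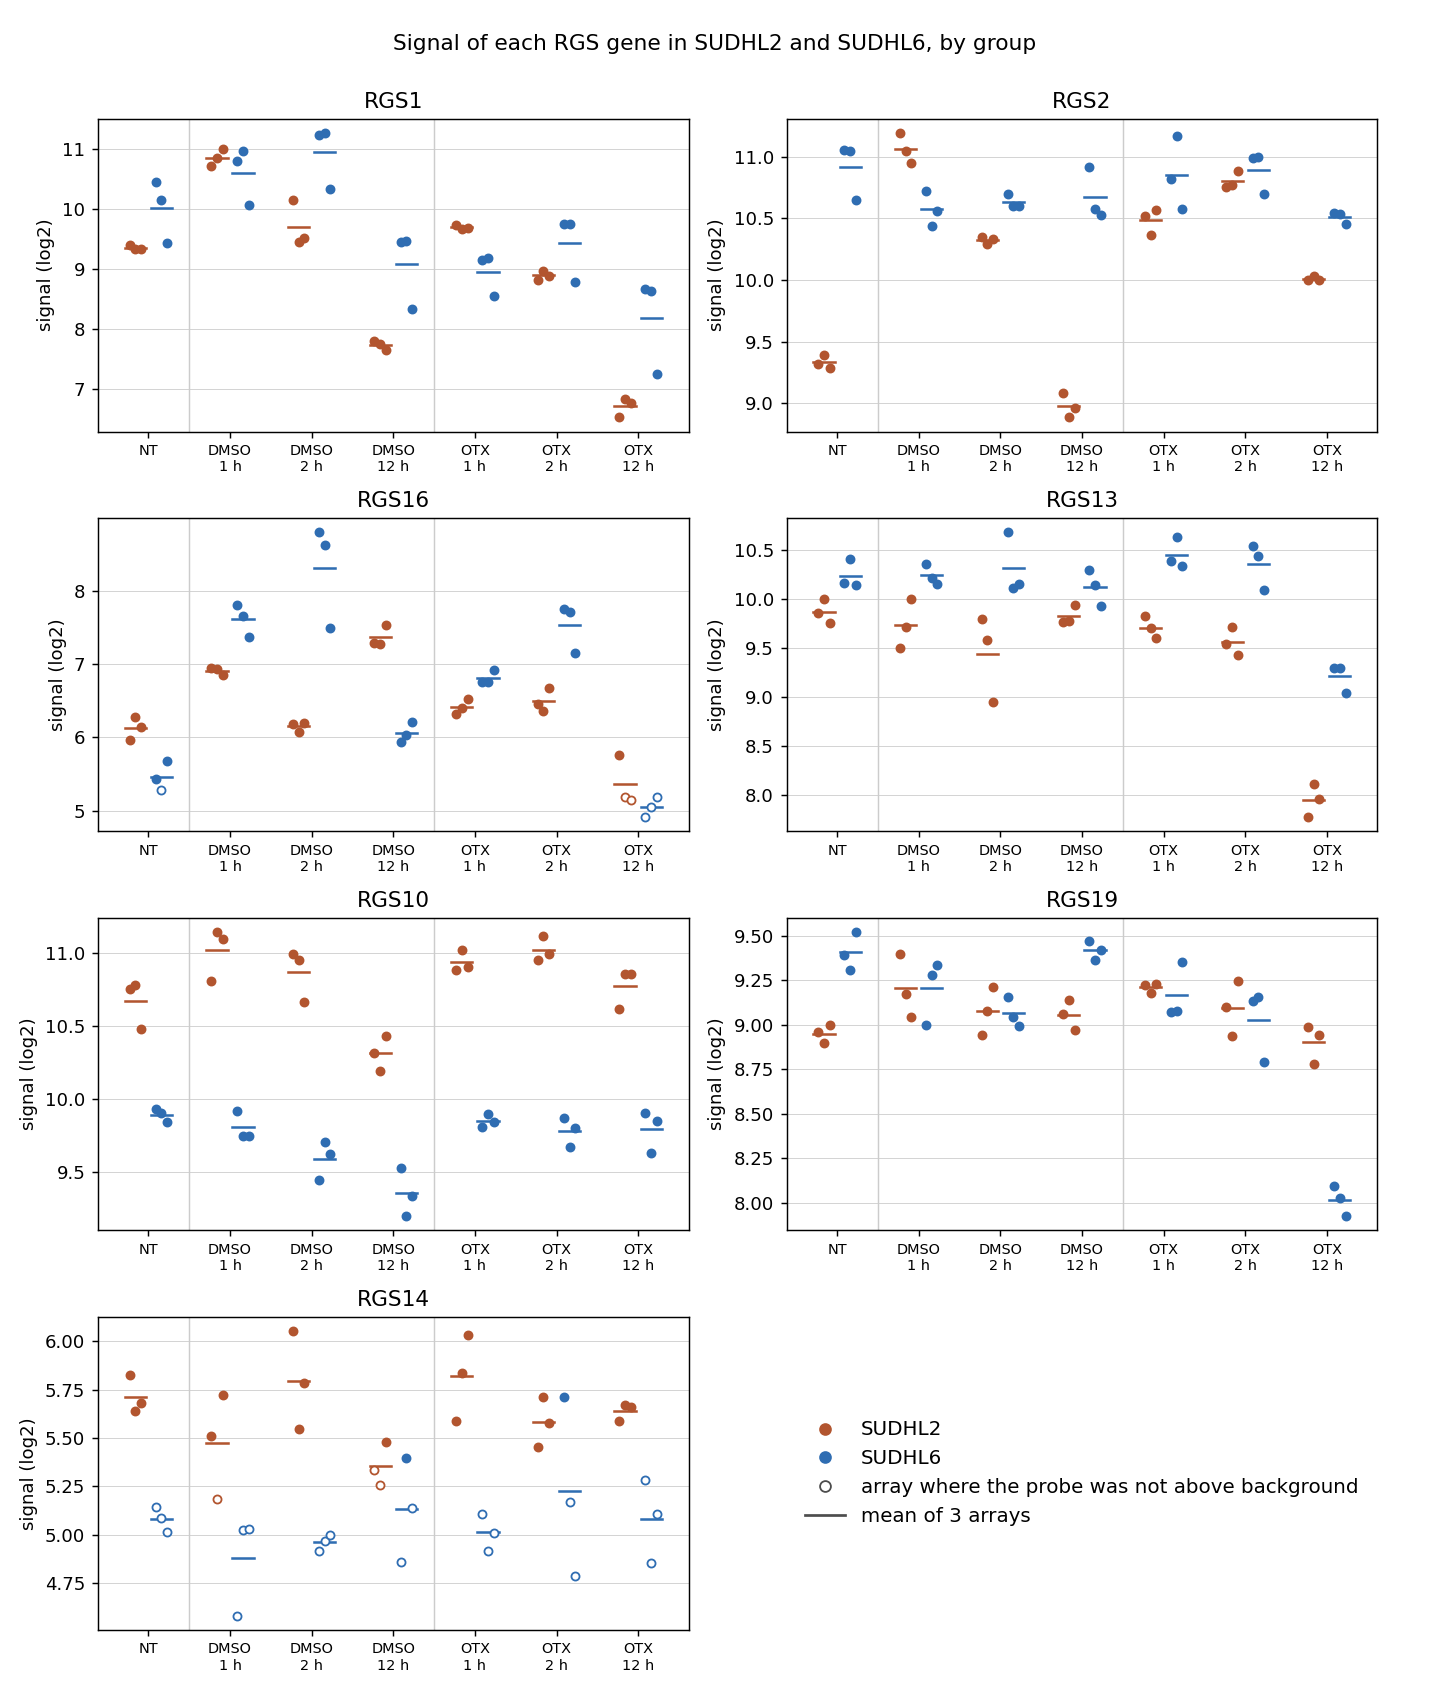
Signal (log2, y axis) of each RGS gene on every array of SUDHL2 (orange) and SUDHL6 (blue), by group (x axis: NT, not treated; OTX, OTX015), with the mean of 3 arrays as a bar. Each gene has its own y axis; RGS1 is lower with OTX015 than with DMSO at each hour, and open points mark arrays where the probe was not above background, as for RGS16 on 5 of the 6 OTX015 arrays at 12 h.

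RGS2 is best known as a brake on receptors that act through Gq. In SUDHL2 its response to OTX015 turned with time: it was lower than with DMSO at 1 h and higher at 2 and 12 h. At 1 h the OTX015 arrays read 10.52, 10.36 and 10.57 and the DMSO arrays 11.19, 11.05 and 10.95. At 2 h they read 10.76, 10.77 and 10.89 against 10.35, 10.29 and 10.33, and at 12 h 10 on replicates 1 and 3 and 10.03 on replicate 2, against 9.08, 8.89 and 8.96. The groups did not overlap at any hour. The changes were -0.58 ± 0.12 (adjusted p = 0.014), 0.48 ± 0.12 (adjusted p = 0.012) and 1.03 ± 0.12 (2.05-fold higher, adjusted p = 3.4e-09). The 1 h call was lost with 75th percentile scaling (-0.49, adjusted p = 0.18) and without either of DMSO replicates 1 and 2 or OTX015 replicates 1 and 2 (adjusted p = 0.059 to 0.19). The 2 h call was lost without DMSO replicate 2 (adjusted p = 0.053) or OTX015 replicate 3 (adjusted p = 0.072), and the 12 h call under no alternative that was run.

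The DMSO arrays moved as well. Untreated SUDHL2 arrays read 9.32, 9.39 and 9.29, and with DMSO RGS2 rose by 1.73 ± 0.12 at 1 h (3.32-fold, adjusted p = 8.3e-14) and by 0.99 ± 0.12 at 2 h (adjusted p = 8.5e-08). At 12 h it differed from untreated by -0.36 (adjusted p = 0.025), a call lost with 75th percentile scaling (adjusted p = 0.1) and without 4 of the 6 arrays. With OTX015, RGS2 was above untreated at all 3 hours, by 1.15, 1.47 and 0.68 ± 0.12 (adjusted p = 1.3e-08, 4.4e-12 and 1.3e-05). In SUDHL6 no RGS2 difference between OTX015 and DMSO was called. All 21 SUDHL6 arrays lay between 10.44 and 11.17, the groups overlapped at each hour, and the differences were 0.28, 0.26 and -0.16 (adjusted p = 0.53, 0.24 and 0.36). The 95% interval at 12 h ran from -0.40 to 0.08. The response was 1.2 ± 0.17 higher in SUDHL2 than in SUDHL6 at 12 h (adjusted p = 1.7e-06) and differed by -0.86 ± 0.17 at 1 h (adjusted p = 0.028), in tests of the difference itself.

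RGS16, which activated lymphocytes express and which curbs chemokine signals, fell with OTX015 at 12 h in both lines. In SUDHL2 at 12 h the OTX015 arrays read 5.75, 5.19 and 5.14, of which only the first was above background, and the DMSO arrays 7.29, 7.27 and 7.53. The change of -2.0 ± 0.20 (adjusted p = 7.4e-11) was -1.09 without background correction and -1.01 with the authors' values, and was called in both. At 1 h and 2 h in SUDHL2 the differences were -0.49 and 0.35 (adjusted p = 0.99 and 0.55), with arrays that did not overlap. In SUDHL6 the 12 h DMSO arrays read 5.93, 6.04 and 6.2, while none of the OTX015 arrays (4.92, 5.05 and 5.18) was above background, so RGS16 was at least 1.55-fold lower (adjusted p = 0.00011). In SUDHL6 the early changes were -0.79 ± 0.20 at 1 h (adjusted p = 0.034) and -0.77 ± 0.20 at 2 h (adjusted p = 0.01). The 1 h arrays read 6.76, 6.76 and 6.92 against 7.80, 7.65 and 7.37 and did not overlap. At 2 h they read 7.75, 7.71 and 7.14 against 8.79, 8.63 and 7.49 and overlapped. Both early calls held in each of the 10 settings that kept all arrays. Leaving out single arrays cost the 1 h call in 5 of 6 cases (adjusted p up to 0.22) and the 2 h call without DMSO replicate 1 or 2 or OTX015 replicate 3 (-0.52, -0.61 and -0.57).

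The vehicle arrays of SUDHL6 held the largest RGS16 movement. Untreated arrays read 5.43, 5.28 and 5.68, the second not above background. With DMSO, RGS16 was 2.14 ± 0.20 higher at 1 h (4.42-fold, adjusted p = 2.2e-10) and 2.84 ± 0.20 higher at 2 h (7.17-fold, adjusted p = 4.3e-14), with no overlap. At 12 h it was 0.60 higher (adjusted p = 0.031), which was not called without background correction (0.26, adjusted p = 0.19), with a normexp offset of 50 (0.36, adjusted p = 0.11) or with the authors' values (0.27, adjusted p = 0.15). With OTX015 the gene also stood above untreated at 1 h (1.35 ± 0.20, adjusted p = 1e-05) and 2 h (2.07 ± 0.20, adjusted p = 1.3e-10). In SUDHL2, RGS16 was higher with DMSO than untreated, by 0.78 ± 0.20 at 1 h (adjusted p = 0.011) and by 1.24 ± 0.20 at 12 h (adjusted p = 6e-06). With OTX015 at 12 h it differed from untreated by -0.77 (adjusted p = 0.0017). Without background correction the DMSO differences in RGS16 were 1.23 at 1 h and 1.8 at 2 h in SUDHL6 and 0.45 at 1 h and 0.76 at 12 h in SUDHL2. Those with OTX015 against untreated were then 0.69 at 1 h and 1.19 at 2 h in SUDHL6 and -0.34 at 12 h in SUDHL2, and each of these 7 was still called.

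RGS13 marks germinal centre B cells and limits their response to chemokines. It fell with OTX015 at 12 h in both lines and was not called at 1 or 2 h. In SUDHL2 at 12 h the OTX015 arrays read 7.78, 8.11 and 7.96 and the DMSO arrays 9.76, 9.77 and 9.94. The change was -1.87 ± 0.16 (3.66-fold lower, adjusted p = 1.4e-12). In SUDHL6 they read 9.29, 9.30 and 9.04 against 10.29, 10.14 and 9.93, a change of -0.91 ± 0.16 (1.88-fold lower, adjusted p = 1.8e-05). Neither pair of groups overlapped, and both calls held under each alternative. Between DMSO and untreated arrays RGS13 was not called at any hour, the largest difference being -0.43 at 2 h in SUDHL2 (adjusted p = 0.064), which was called without DMSO replicate 1 (-0.61, adjusted p = 0.011). A second RGS13 probe, fainter, gave -0.66 in SUDHL2 (adjusted p = 0.0021 over probes) and was above background on none of the OTX015 arrays there. In SUDHL6 it gave -0.46 (adjusted p = 0.05 over probes). By the brighter probe the 12 h fall was larger in SUDHL2, with a difference of -0.96 ± 0.22 between the lines (adjusted p = 0.0024). That test called 12.3% of all genes. The fainter probe gave -0.21 for the same difference (adjusted p = 0.69 over probes).

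RGS19, a member first found through its binding to Gi-type alpha subunits, fell with OTX015 at 12 h in SUDHL6. The 12 h OTX015 arrays read 8.09, 8.03 and 7.93 and the DMSO arrays 9.47, 9.36 and 9.42, with no overlap. The change was -1.40 ± 0.11 (2.65-fold lower, adjusted p = 8e-13). In SUDHL2 the same comparison gave 8.99, 8.78 and 8.94 against 9.06, 9.14 and 8.97. These overlapped, and the change of -0.15 ± 0.11 was not called (adjusted p = 0.34, 95% interval -0.38 to 0.08). With 75th percentile scaling the SUDHL2 change was -0.31 and was called (adjusted p = 0.04). The 2 lines differed in this response by 1.25 ± 0.16 (adjusted p = 2.6e-07). At 2 h in SUDHL6, RGS19 was below untreated with DMSO (-0.34, adjusted p = 0.041) and with OTX015 (-0.38, adjusted p = 0.022). The untreated arrays are shared by both values, and neither was called with the third experiment left out (-0.25 and -0.20, adjusted p = 0.24 and 0.45).

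RGS10, a small member expressed widely in immune cells, rose in both lines at 12 h. At 12 h the SUDHL2 arrays read 10.62, 10.86 and 10.86 with OTX015 and 10.32, 10.19 and 10.43 with DMSO. The SUDHL6 arrays read 9.90, 9.63 and 9.85 against 9.53, 9.20 and 9.33. Neither pair overlapped, and the changes were 0.46 ± 0.11 (adjusted p = 0.00097) and 0.44 ± 0.11 (adjusted p = 0.0023). They stood against a fall with DMSO, with -0.36 in SUDHL2 (adjusted p = 0.015, lost without 3 of the 6 arrays) and -0.54 in SUDHL6 (adjusted p = 0.00054). OTX015 arrays at 12 h differed from untreated by 0.10 and -0.10 (adjusted p = 0.52 and 0.56). With 75th percentile scaling the SUDHL2 rise was 0.33 and not called (adjusted p = 0.056). A second RGS10 probe gave 0.50 in SUDHL2 (adjusted p = 0.024 over probes) and 0.19 in SUDHL6 (adjusted p = 0.52 over probes), and the third was above background on no array.

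RGS14, a scaffold that also binds Ras-type GTPases, was faint. It was above background on 18 of 21 SUDHL2 arrays (5.19 to 6.05 over all 21) and 2 of 21 SUDHL6 arrays (4.58 to 5.71). No change with OTX015 or DMSO was called in either line, the largest being 0.35 ± 0.17 with OTX015 against DMSO at 1 h in SUDHL2 and -0.36 ± 0.17 with DMSO against untreated at 12 h there.

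**Figure D2:**
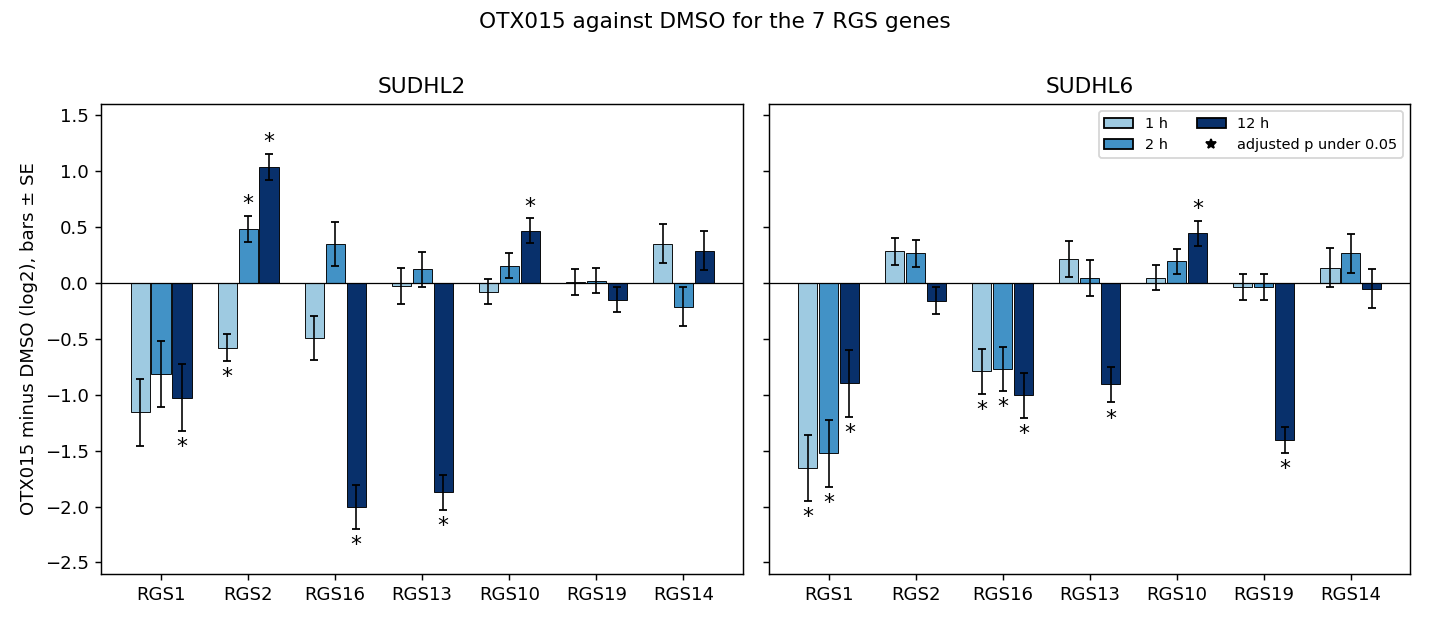
Difference between OTX015 and DMSO (log2, y axis) for each RGS gene (x axis) at 1, 2 and 12 h in SUDHL2 and SUDHL6. Each bar compares 3 with 3 arrays, ± limma's SE, which is pooled over the 42 arrays of both lines. Stars mark limma's adjusted p under 0.05. RGS1 bars point down at all 6 places, RGS2 turns from down to up in SUDHL2, and RGS13, RGS16 and RGS19 have their longest bars at 12 h; the RGS16 bar at 12 h in SUDHL6 rests on arrays below background and is no fold.

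Over the 7 genes, OTX015 against DMSO in SUDHL2 gave 1 call at 1 h, the fall of RGS2, where 0.187% of all genes tested were called. It gave 1 at 2 h, the rise of RGS2, against 3.3% of all genes, and 5 at 12 h, 2 rises and 3 falls, against 34.1%. In SUDHL6 there were 2 calls at 1 h (0.806% of genes) and 2 at 2 h (6.01%), the falls of RGS1 and RGS16 each time. At 12 h there were 5 (26.8% of genes), 4 falls and the rise of RGS10. The median change of the 7 genes at 12 h was -0.15 in SUDHL2 and -0.90 in SUDHL6, against 0.02 over all genes in both. The arrays of the 2 groups did not overlap for 3, 3 and 6 members in SUDHL2 (10.1%, 15.8% and 44.7% of all genes) and for 2, 1 and 4 in SUDHL6 (11%, 18.8% and 36.6%). With the third SUDHL6 experiment left out, the calls over the 3 hours came to 9 in SUDHL2, where they were 7, and to 9 in SUDHL6, as before. Because the RNA is a bulk extract, fewer cells that express a gene and less RNA per cell cannot be told apart.

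DMSO against untreated cells gave 3 calls at 1 h in SUDHL2 (RGS1, RGS2 and RGS16, all higher), 1 at 2 h (RGS2, higher) and 4 at 12 h (RGS16 higher, RGS1, RGS2 and RGS10 lower), where 6.11%, 13.9% and 22.9% of genes were called. In SUDHL6 it gave 1 call at 1 h (RGS16, higher), 3 at 2 h (RGS1 and RGS16 higher, RGS19 lower) and 3 at 12 h (RGS16 higher, RGS1 and RGS10 lower), where 1.78%, 11.7% and 16.9% were called. OTX015 against the same untreated arrays gave 1, 2 and 4 member calls in SUDHL2 (4.84%, 12.2% and 36.3% of genes) and 2, 2 and 4 in SUDHL6 (2.06%, 10.7% and 30.8%). Among them, RGS2 at 12 h in SUDHL6 differed from untreated by -0.41 (adjusted p = 0.0072), a call lost without untreated replicate 1 or 2 (-0.34, adjusted p = 0.055 each), and RGS10 at 2 h in SUDHL2 by 0.35 (adjusted p = 0.034, lost without 3 of the 6 arrays and with 3 of 10 settings). RGS13 at 12 h differed from untreated by -1.92 in SUDHL2 (adjusted p = 5.9e-13) and -1.03 in SUDHL6 (adjusted p = 1.8e-06), and RGS19 in SUDHL6 by -1.39 (adjusted p = 5.8e-13). In tests of the difference in OTX015 response, members were called between the lines at 1 h (RGS2), 2 h (RGS16) and 12 h (RGS2, RGS13, RGS16 and RGS19), where 0.0373%, 0.642% and 12.3% of genes were called. The RGS16 call between lines at 12 h rests on OTX015 levels at or near background in both. Between 12 h and 1 h, 4 members were called in SUDHL2 (22.7% of genes) and 2 in SUDHL6 (15.2%). Where slides held both groups of a pair, each called difference between groups kept its sign within every such slide.

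Untreated, the lines differed in 6 of the 7 genes, with 52.5% of all genes called. RGS2 was lower in SUDHL2 than in SUDHL6 (-1.58 ± 0.12, adjusted p = 4.8e-15), with arrays at 9.29 to 9.39 against 10.65 to 11.05. RGS10 was 0.78 ± 0.11 higher in SUDHL2 (adjusted p = 1.1e-07), and its 21 SUDHL2 arrays (10.19 to 11.15) lay above all 21 SUDHL6 arrays (9.20 to 9.93) whatever the treatment. RGS16 was 0.67 ± 0.20 higher in SUDHL2 (adjusted p = 0.004). Without background correction this was 0.30 (adjusted p = 0.059), and on the 1 slide with untreated arrays of both lines it was 0.29. The single panel arrays lay the other way, at 6.45 in SU-DHL-2 and 7.04 in SU-DHL-6. RGS19 was lower in SUDHL2 (-0.46 ± 0.11, adjusted p = 0.00075). RGS14, above background on none of the 3 untreated SUDHL6 arrays, was at least 1.26-fold higher in SUDHL2 (adjusted p = 0.0021). RGS13 was lower in SUDHL2 (-0.37, adjusted p = 0.05 after rounding), a call lost in 5 of 10 alternatives that kept all arrays, with slide as a block among them (-0.18, adjusted p = 0.42), and lost without any of 5 of the 6 arrays. RGS1, at -0.66 ± 0.30, was not called (adjusted p = 0.059), but was called without untreated SUDHL6 replicate 3 (-0.95, adjusted p = 0.012), without background correction (adjusted p = 0.047) and with the authors' values (adjusted p = 0.045). With slide as a block it was -0.12 (adjusted p = 0.71), and on the 1 slide that held untreated arrays of both lines it was -0.04.

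Ordered by group mean, RGS1 was highest in SUDHL6 with DMSO at 2 h (10.95) and lowest in SUDHL2 with OTX015 at 12 h (6.70), and 11 of the 13 neighbouring pairs of groups had overlapping arrays. RGS2 ran from 11.06 in SUDHL2 with DMSO at 1 h to 8.98 in SUDHL2 with DMSO at 12 h, and each of its 4 lowest groups, all SUDHL2, was clear of its neighbours in the order. RGS16 ran from 8.31 in SUDHL6 with DMSO at 2 h to 5.05 in SUDHL6 with OTX015 at 12 h. RGS13 was highest in SUDHL6 with OTX015 at 1 h (10.45), and only its lowest group, SUDHL2 with OTX015 at 12 h (7.95), stood clear of its neighbour. RGS19 had SUDHL6 with OTX015 at 12 h lowest (8.01) clear of the next group at 8.90, while the 11 groups ranked between these and the top pair lay within 8.90 to 9.21. RGS10 had SUDHL2 groups in its first 7 places, and in RGS14 every neighbouring pair overlapped.

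In the untreated panel RGS1 and RGS13 varied most. RGS1 ran from 4.95 in OCI-Ly7, where it was not above background, through a median of 8.39 to 11.74 in OCI-Ly3, followed by OCI-Ly10 (11.38) and RIVA (11.02). RGS13 was above background in 17 of 21 lines, at 7.46 in RIVA to 11.04 in OCI-Ly3, and not above background in OCI-Ly8, RCK8, DoHH2 and OCI-Ly19 (4.73 to 5.13). No line fell in the step of 2.34 between these sets. RGS10 showed a step of the same kind: OCI-Ly2, OCI-Ly1 and SU-DHL-7 read 7.76, 7.57 and 7.49, and the next line, SU-DHL-6, 9.75, a step of 1.98, with HBL-1 highest at 11.86. The arrays of OCI-Ly1 and OCI-Ly2 correlated at 0.974, where panel SU-DHL-2 correlated with the untreated SUDHL2 arrays at 0.973 or more, and their RGS1 levels were 6.0 and 10.73.

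RGS2 was above background in every line, from 7.10 in OCI-Ly8 through a median of 9.99 to 11.62 in RIVA. RGS19 had the narrowest spread of the well-detected genes, from 7.37 in OCI-Ly1 through 8.64 to 9.82 in SU-DHL-7. RGS16 ran from 4.70 in HBL-1, not above background, through 6.71 to 8.80 in RCK8, and RGS14 from 4.82 to 6.05. Between neighbouring lines in the order of levels, the step was larger than the replicate standard deviation of the treated lines (0.42 for RGS1, 0.14 for RGS2, 0.21 for RGS13) in 5 of 20 steps for RGS1 and 9 of 20 for RGS2 and for RGS13, so most neighbours did not differ beyond that spread. For RGS14 it was larger in 0 of 20. That standard deviation does not cover the gaps between panel and time-course arrays of the same line. These gaps, given below, were larger than it for RGS1, RGS2 and RGS13. A step over it therefore need not be a difference between lines, and with 1 array a line there is no test. On the array labelled Karpas-422, RGS13 was not above background (4.72), RGS2 was 8.80, RGS1 9.94 and RGS14 7.67, above all other lines. The authors' deposited log2 values for the same line were 10.34, 12.34, 7.84 and 6.76.

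The panel also holds a further array of each treated line. Relative to the mean of the 3 untreated time-course arrays, RGS1 differed by -1.03 in panel SU-DHL-2 and -1.63 in panel SU-DHL-6, and RGS16 by 0.32 and 1.58. RGS2 differed by 0.52 and -0.88. RGS13 differed by -0.85 and -0.25, RGS10 by -0.53 and -0.15, and RGS19 by -0.32 and -0.22. Between panel SU-DHL-2 and SU-DHL-6, RGS16 (6.45 and 7.04) lay the other way from the untreated time course. RGS2 (9.85 and 10.04) lay close together. RGS10 (10.15 and 9.75), RGS13 (9.02 and 9.99) and RGS19 (8.64 and 9.19) kept their direction. With a single panel array a line, neither these levels nor the gaps were tested.

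**Figure D3:**
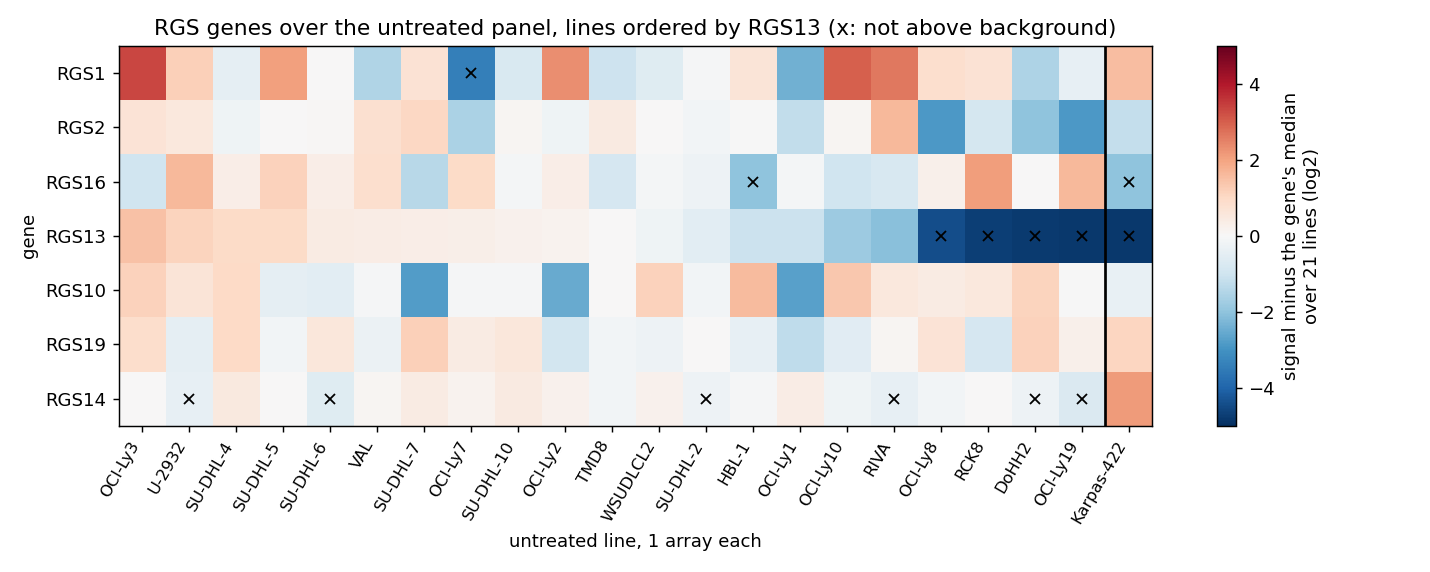
Level of each RGS gene (rows) in each untreated panel line (columns, 1 array each, ordered by RGS13 with Karpas-422 set apart at the right), as the log2 difference from the gene's median over the other 21 lines (colour), with crosses where the probe was not above background. RGS13 is dark blue and crossed in OCI-Ly8, RCK8, DoHH2 and OCI-Ly19, and RGS10 is blue in SU-DHL-7, OCI-Ly2 and OCI-Ly1.

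RGS2 was at its 3 lowest panel levels in OCI-Ly8, OCI-Ly19 and DoHH2 (7.10, 7.11 and 7.98), which were among the 4 lines where RGS13 was not above background. The correlation of RGS2 and RGS13 was 0.679 over 21 lines, 0.454 without the 2 lines farthest from the RGS2 median, and -0.043 over the 17 lines with RGS13 above background. These points share the arrays and their normalization. By likeness over the 21 lines, the genes nearest RGS13 were NPAS1 (Pearson r = 0.822), BORCS8-MEF2B (0.774) and PCED1B (0.774), out of 12719 compared. With the array labelled Karpas-422 included they were PCED1B (0.809), CD22 (0.805) and BORCS8-MEF2B (0.796). Nearest to RGS1 was PTPRG (0.665), to RGS2 DYNLRB1 (0.793), to RGS10 NOPCHAP1 (0.839), to RGS16 MRPL52 (0.754) and to RGS19 GRK5 (0.73), with OPRL1, which lies next to RGS19 on chromosome 20 in RefSeq's GRCh38.p14 annotation at 0.716 among the nearest 3. For RGS14 it was ERBB2 (0.775), where with the array labelled Karpas-422 it was COL6A3 (0.856). RGS14 was above background in only 15 of the 21 lines, and 0 of its 20 steps were over the replicate standard deviation. Each nearest gene was picked as the highest of 12719 correlations, and none was tested. Over the 14 group means of the treated lines, the nearest were SGO1 to RGS1 (0.905), DNAH1 to RGS2 (0.876), COG6 to RGS10 (0.995), TBL1X to RGS13 (0.975), H2AZ1 to RGS14 (0.952), TRIAP1 to RGS16 (0.835) and LYL1 to RGS19 (0.894). The 14 means share lines and treatments.

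Receptors that signal through G proteins were taken from a list of 22 chemokine, lipid and nucleotide receptors, of which 17 were tested. In both lines several were lower with OTX015 than with DMSO. In SUDHL2, 0, 3 and 9 of the 17 had fallen against DMSO at 1, 2 and 12 h and 0, 0 and 2 had risen, where 0.134%, 2.47% and 16.4% of all genes had fallen and 0.0523%, 0.829% and 17.7% had risen. In SUDHL6, 2, 6 and 7 had fallen and 0, 0 and 2 had risen, where 0.635%, 3.25% and 12.9% of genes had fallen and 0.172%, 2.76% and 13.9% had risen. The median change at 2 h was -0.33 in SUDHL2 and -0.57 in SUDHL6, against 0.01 and 0.03 over all genes. The receptors moved in the DMSO arrays too. Against untreated SUDHL2, 0, 2 and 6 had risen with DMSO at 1, 2 and 12 h (3.51%, 7.91% and 12.1% of genes). Against untreated SUDHL6, 2, 6 and 0 had risen (1.33%, 5.3% and 8.71%). In each line 0, 0 and 2 had fallen (2.6%, 5.97% and 10.8% of genes in SUDHL2, 0.455%, 6.41% and 8.18% in SUDHL6). With OTX015 against untreated SUDHL2, 1, 3 and 4 had fallen (2.08%, 5.53% and 17.2% of genes) and 1, 0 and 3 had risen (2.76%, 6.65% and 19.2%). In SUDHL6, 0, 2 and 9 had fallen (0.978%, 5.61% and 14.6%) and 0, 1 and 0 had risen (1.08%, 5.06% and 16.3%). The values that follow are again against DMSO. The orphan receptor GPR18 changed by -2.24 ± 0.33 at 2 h (adjusted p = 1.2e-05) and 0.84 ± 0.33 at 12 h (adjusted p = 0.044) in SUDHL2. In SUDHL6 it changed by -1.86, -2.07 and -1.45 at 1, 2 and 12 h (adjusted p = 0.00086, 2.2e-05 and 0.00069). CXCR4, the receptor for the chemokine CXCL12, changed by -1.20 ± 0.24 at 1 h and -1.16 ± 0.24 at 2 h in SUDHL6 (adjusted p = 0.0045 and 0.0012). At 12 h there it was 1.24 ± 0.24 higher (adjusted p = 0.00011). GPR183, the oxysterol receptor that places B cells in the follicle, fell by 2.70 ± 0.31 at 12 h in SUDHL2 (adjusted p = 2.4e-09), while the lymph node homing receptor CCR7 rose by 1.82 ± 0.45 (adjusted p = 0.0013). GPR132, above background on none of the OTX015 arrays and 2 of the DMSO arrays, was lower by at least 1.2-fold at 2 h in SUDHL2 (adjusted p = 0.0087). It also counts as fallen at 12 h in both lines, though in SUDHL6 it was above background in neither group. CNR2, counted as fallen at 12 h in both lines, was above background on no OTX015 array there and gets no fold.

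Beyond the receptors lie the G-protein subunits, on whose alpha subunits RGS proteins act, and their effectors. With OTX015 against DMSO at 12 h, 17.7% of all genes had risen and 16.4% fallen in SUDHL2, and 13.9% and 12.9% in SUDHL6. Of 9 tested G-protein alpha subunits none was called at 1 or 2 h. At 12 h, 2 had risen and 4 fallen in SUDHL2, and 1 had risen in SUDHL6. Of 13 beta and gamma subunits, 1 had risen at 2 h in SUDHL6, 2 had risen and 3 fallen at 12 h in SUDHL2, GNG10 among them (-1.5 ± 0.18, adjusted p = 1.4e-08), and 3 had fallen in SUDHL6. These counts hold dim genes. GNG4, risen in SUDHL2, and GNG11, fallen in SUDHL6, were above background in neither group at 12 h. GNB3, the rise at 2 h, was above background on 1 of the 6 arrays. Of 21 effectors, 0, 1 and 3 had fallen at 1, 2 and 12 h in SUDHL2 and 1, 2 and 2 in SUDHL6, with 2 risen at 12 h in SUDHL2 and 1 in SUDHL6. The cAMP phosphodiesterase PDE4B, above background on 2 DMSO arrays and none with OTX015, was lower by at least 1.13-fold at 2 h in SUDHL6 (adjusted p = 0.00034). The adenylyl cyclase ADCY3 changed by -1.18 ± 0.17 at 12 h there (adjusted p = 5.1e-07) and by -0.77 ± 0.17 at 12 h in SUDHL2 (adjusted p = 0.00033). ADCY9, called at 1 h in SUDHL6, was above background in neither group and gets no fold. Of 10 other brakes, such as receptor kinases and arrestins, 3 had risen at 12 h in SUDHL2 and 1 had risen with 3 fallen in SUDHL6, and none was called earlier. Of the 17 other RGS and axin genes, 16 had a probe and 10 were tested, with 1 fall at 12 h in SUDHL2 (RGS18, -0.58, adjusted p = 0.039) and 1 rise in SUDHL6 (RGS12, above background on 1 of the 6 arrays, adjusted p = 0.032) as their only calls against DMSO.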

How the data were processed

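The deposited signal table gives a linear intensity per probe and array, per its file header not normalized. The deposited processed table gives the authors' log2 values, with medians of 6.64 in the treated lines and 6.74 in the panel, so the 2 sets were centred apart. No source used here states how they were made or the array's build. In R 4.3.3, limma 3.58.1 (normexp, offset 16) corrected the signals, which were quantile normalized over 64 arrays and put on the log2 scale. The design counted on deposited detection p-values, which the signal table does not hold. Instead, each array's signals under the mode of its background were mirrored about it to give a p-value, and a probe was kept if p was under 0.01 on at least 3 of 42 arrays. A gene was its kept probe with the highest mean. One limma model (lmFit, eBayes with trend) gave 24 contrasts, 2-sided, Benjamini-Hochberg adjusted over 13393 genes. Where a group had the probe above background on no array, the fold is a lower bound against the lowest signal of a detected probe.

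The fit was tested on simulated data. Members and lists were chosen with earlier results of these data known. Named genes were all members, the 3 largest called changes of the pathway lists in each OTX015 comparison, and the nearest 3 genes to each member, of which the first is mostly given. RGS18, RGS12, GNG4, GNG11, GNB3 and CNR2 were named after their values were seen. A gene of the effector list that the rule names is not reported here. Gene names came from the platform annotation (30113 probes with 1 symbol, 8 with several, 17110 with none). Alternatives changed the background correction, scaling, filter, probe rule, slide or replicate block, or left out an array. Those added after seeing the data were the third SUDHL6 experiment left out and likeness without Karpas-422. The labels do not say that replicates were separate cultures, so p-values measure the spread between these arrays, and the number of arrays limits the precision. Equal replicate numbers paired arrays only in SUDHL6, for OTX015 against DMSO at each hour and OTX015 against untreated at 2 h, where each correlation of deviations was over 0.1 (0.123 to 0.438).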

Additional observations from a re-analysis of the deposited data

Results flagged for a closer look

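For 6 responses the test of the difference between SUDHL2 and SUDHL6 was passed, and for 6 the test of the difference between 12 h and 1 h within a line. Between the lines, the OTX015 response of RGS2 was -0.86 at 1 h (adjusted p = 0.028) and 1.2 at 12 h (adjusted p = 1.7e-06), given as SUDHL2 minus SUDHL6. That of RGS16 was 1.12 at 2 h (adjusted p = 0.042) and -1.0 at 12 h (adjusted p = 0.013). At 12 h that of RGS13 was -0.96 (adjusted p = 0.0024) and that of RGS19 was 1.25 (adjusted p = 2.6e-07). The fainter RGS13 probe gave -0.21 (adjusted p = 0.69 over probes). At 12 h with OTX015, RGS16 was above background on 1 of 3 arrays in SUDHL2 and none in SUDHL6. Its DMSO means were 7.37 and 6.06, so the -1.0 gives no size for a difference between the falls. Of all genes, 0.0373% were called for a difference between lines at 1 h, 0.642% at 2 h and 12.3% at 12 h. The 1 h value of RGS2 was lost without 8 of 12 arrays and the 2 h value of RGS16 without 9 of 12. With 75th percentile scaling the 1 h value of RGS2 was -0.82 (adjusted p = 0.12).

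Within SUDHL2, the 12 h response exceeded the 1 h response by 1.61 for RGS2 (adjusted p = 1.4e-09) and by 0.55 for RGS10 (adjusted p = 0.0092), and was lower by -1.84 for RGS13 (adjusted p = 4.1e-08) and -1.51 for RGS16 (adjusted p = 7e-05). Within SUDHL6 it was lower by -1.12 for RGS13 (adjusted p = 0.00035) and -1.37 for RGS19 (adjusted p = 4.2e-08). Of all genes, 22.7% in SUDHL2 and 15.2% in SUDHL6 were called. RGS1 was called in neither line (0.13 and 0.76, adjusted p = 0.87 and 0.25). The SUDHL6 value of RGS1 was called with the replicate number as a block (adjusted p = 0.0035) and with the third experiment left out (0.91, adjusted p = 0.0037). For RGS2 in SUDHL6 the value of -0.44 (adjusted p = 0.07) was called with that block (adjusted p = 0.029) and with the third experiment left out (-0.62, adjusted p = 0.015). With 75th percentile scaling the RGS10 value was 0.33 (adjusted p = 0.21).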

How the results depend on the processing

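Of 63 called differences between groups, hours or lines, 50 kept their call under each of the alternatives that kept all arrays and 45 under each left-out array, and none changed sign. The calls of members over the 3 hours ranged, over left-out arrays, from 6 to 7 for OTX015 against DMSO in SUDHL2 and from 8 to 9 in SUDHL6. For DMSO against untreated they ranged from 5 to 10 in SUDHL2 (8 with all arrays, 5 without untreated replicate 1) and from 4 to 8 in SUDHL6 (7 with all arrays, 4 without untreated replicate 1 or 2). For OTX015 against untreated in SUDHL6 they ranged from 5 to 8 (8 with all arrays, 5 without untreated replicate 1), in SUDHL2 from 6 to 7, for differences between lines from 4 to 6, for 12 h against 1 h from 6 to 7, and for the untreated lines from 5 to 6.

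The replicate block called RGS1 in SUDHL2 at 1 h (-1.16, adjusted p = 4.1e-07) and 2 h (-0.82, adjusted p = 6.2e-05), and took the calls for OTX015 against DMSO in SUDHL2 from 7 to 9, but equal numbers did not pair the SUDHL2 arrays. In SUDHL6 it also called RGS1 for OTX015 against untreated at 2 h and for DMSO against untreated at 1 h (0.60, adjusted p = 0.0054), and RGS1 and RGS2 for 12 h against 1 h. Between the untreated lines this block moved the RGS1 value from -0.66 to -0.96. Every group holds the same replicate numbers, so a block shared by the lines could not move it. The value rests on blocks within lines, which cannot test a difference between lines. 75th percentile scaling moved the median of all genes by over 0.1 in 1 comparison, untreated SUDHL2 against SUDHL6 (from 0.007 to -0.096), and differences there are read against that shift. The cause of these changes was not tested.

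Over all 22 arrays, the one labelled Karpas-422 included, panel ranges without background correction were 5.15 for RGS1, 3.97 for RGS2, 3.94 for RGS10, 4.53 for RGS13, 1.5 for RGS14, 2.46 for RGS16 and 2.06 for RGS19, against 6.78, 4.51, 4.38, 6.31, 2.85, 4.11 and 2.45 with it. In the authors' values they were 5.01 for RGS1, 4.55 for RGS2, 3.74 for RGS10, 4.4 for RGS13, 0.58 for RGS14, 2.42 for RGS16 and 3.14 for RGS19. Without Karpas-422 the RGS14 range was 1.23. Dim probes, RGS14 and RGS16 above all, limit what can be read.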
